A study of Homo sapiens with 6 samples.

Results

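Integrins are cell surface receptors made of 1 alpha and 1 beta chain, and a chain reaches the surface only with its partner. In leukocytes the beta-2 chain (CD18) joins alpha-L in LFA-1, alpha-M in Mac-1 or alpha-X (CD11c). These receptors bind ICAM molecules, complement fragments and fibrinogen. The beta-1 chain joins alpha chains that bind fibronectin, VCAM-1 and laminin and hold immature blood cells in the marrow, and the beta-7 chain joins alpha-4 or alpha-E, receptors of lymphocytes in mucosal tissue. ITGAM (CD11b), the alpha chain of Mac-1, is a common marker of granulocyte and monocyte maturation, and was a surface marker of differentiation in the study. The study reported more CD11b on I13-treated Kasumi-1 cells by flow cytometry. That is a protein measure, taken later than the 48 h of the RNA libraries described here. The 10 genes described here are the leukocyte integrin chains ITGAM, ITGAX, ITGAL, ITGB2, ITGA4, ITGA5, ITGA6, ITGB1, ITGB7 and ITGAE. They were taken by symbol from the 32364 genes of the expression table, and all 10 were found.

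The cells were Kasumi-1, an acute myeloid leukemia line that carries the t(8;21) translocation, so every value comes from a single cell line. The control group had 3 libraries of cells kept 48 h with the DMSO vehicle, and the I13 group had 3 libraries of cells incubated for 48 h with 0.5 µM I13, a histone deacetylase inhibitor that contains indole-3-butyric acid. The study speaks of independent experiments for its sequencing figures, but the labels do not tie the libraries of a group to separate cultures. The p-values measure the spread between these libraries, which may be technical. Expression was given as FPKM, fragments on a gene scaled for exon length and for library size. Depth, recovered from these values, ranged from 16566742 to 17221345 fragments for the control and from 15281052 to 16682550 for I13. Over 4133 well expressed genes (mean of 10 FPKM or more), the first principal component (43.3% of the variance) divided the libraries into a pair, made of control replicate 3 with I13 replicate 2, and the remaining 4, and the second (20.5%) separated the groups. No batch is named for these libraries.

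The label of the cells was checked with marker lists. All 8 genes of the Kasumi-1 list, which include the granule enzyme genes MPO, ELANE and PRTN3 and the progenitor genes CD34 and KIT, were expressed, with a summed level between 15554 and 18522 FPKM over the 6 libraries. CD33 of this list was at 11.5 ± 0.613 FPKM (SD, n = 3) in the control and 13.2 ± 0.483 FPKM (SD, n = 3) in the I13 libraries, without overlap. Its unadjusted p was 0.0166 and its adjusted p 0.890 from limma, and 6 of the 8 genes had log2 fold changes below 0. The summed level of 10 lymphocyte genes was between 2.26 and 3.21 FPKM and that of 6 erythroid and megakaryocyte genes between 1.06 and 1.95 FPKM. Of 9 monocyte and neutrophil genes, FCGR3B, FCN1 and CD163 were at 0 in all libraries, and the sum ranged from 97.8 to 99.6 FPKM for the control and from 76.3 to 85.0 FPKM for I13. CSF3R, the G-CSF receptor gene, made up most of that sum, with 91.2 ± 0.491 FPKM (SD, n = 3) in the control and 76.0 ± 3.98 FPKM (SD, n = 3) in the I13 libraries (unadjusted p = 0.00105, adjusted p = 0.517 from limma). CSF1R, the M-CSF receptor gene, was at 6.66 ± 0.458 and 4.84 ± 0.496 FPKM (SD, n = 3), with an unadjusted p of 0.00244 and an adjusted p of 0.583 from limma. S100A9, the other gene of this list that was tested, was at 0.818 ± 0.184 and 0.893 ± 0.491 FPKM (SD, n = 3). The part of these differences in the integrin values was not tested. Of 10 stromal and epithelial genes, COL1A1, COL1A2, COL3A1 and LUM were at 0, and EPCAM held most of a sum between 23.3 and 29.1 FPKM. PECAM1 of this list, which myeloid cells also express, was at 2.46 ± 0.0266 FPKM (SD, n = 3) in the control and 1.55 ± 0.261 FPKM (SD, n = 3) in the I13 libraries.

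The 10 integrin genes covered levels from 66.4 FPKM to nearly 0, as means over the 6 libraries. The order was ITGB1 (66.4 FPKM), ITGA5 (47.2), ITGA4 (27.2), ITGB2 (17.3), ITGA6 (4.62), ITGAE (1.37), ITGAM (0.140), ITGAL (0.104), ITGAX (0.0838) and ITGB7 (0.00658). From ITGB1 down to ITGAM, the range of each gene over the 6 libraries lay wholly above that of the next gene. Below that, the ranges of neighbours overlapped, so the order of ITGAM, ITGAL and ITGAX was not resolved, while ITGAM and ITGAL lay wholly above ITGB7. Of the 27095 genes above 0 in any library, 98.1% had a lower mean than ITGB1 and 35.3% had a lower mean than ITGAM. The 3 alpha chains that define the leukocyte beta-2 integrins were therefore among the little expressed members, and their common beta chain was among the expressed ones.

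**Figure D1:**
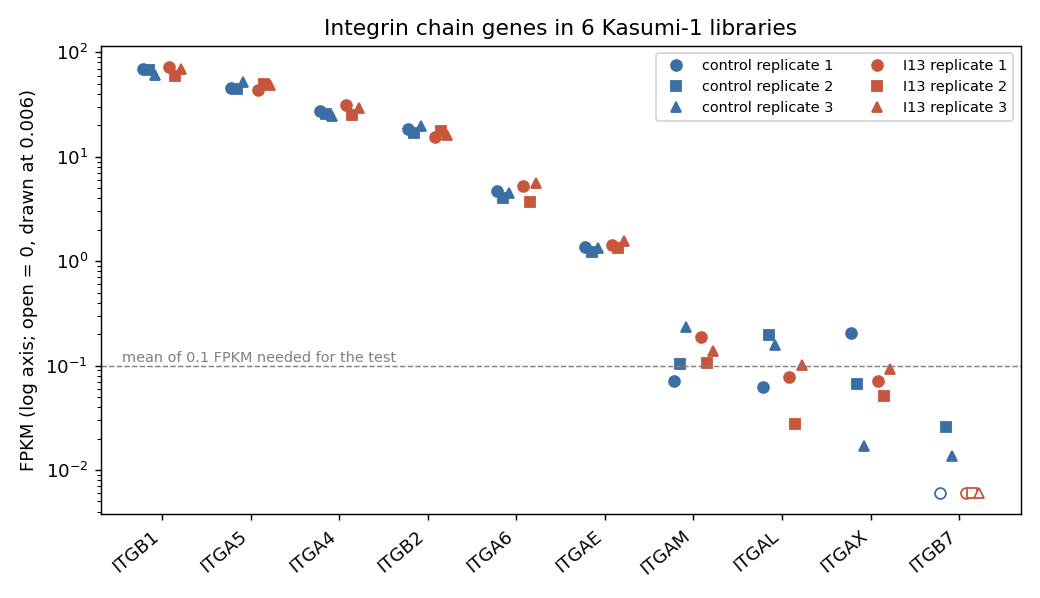
FPKM on a log axis (vertical) of the 10 integrin genes (horizontal), with 1 point per library. Blue points are control and red points I13 libraries, shapes are replicate numbers, and open points are values of 0. ITGB1, ITGA5, ITGA4 and ITGB2 lay between 15.3 and 72.0 FPKM, while ITGAM, ITGAL, ITGAX and ITGB7 did not exceed 0.234 FPKM, and the colors overlapped for each gene.

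The question of the comparison was which genes change when I13 is given. Limma was fitted on log2(FPKM + 0.1) over the 18726 genes that averaged 0.1 FPKM or more, two-sided, with Benjamini-Hochberg adjustment. Of the 10 members, 8 passed this minimum and were tested, and ITGAX and ITGB7 were too low. At an unadjusted p under 0.05, 0 of the 8 members were called by limma, where 5.14% of all genes tested were called (2.55% higher and 2.59% lower in I13), and at the adjusted p 0 were called, as for all genes (0%). The voom test on recovered fragments called 1 member, ITGB2, at the unadjusted p and 0 at the adjusted p, where 5.4% and 0.0434% of the 13821 genes tested were called. The median log2 fold change of the 8 members was 0.061, beside 0.0058 for all genes tested, with 6 members above 0 and 2 below. The control and I13 libraries overlapped for all 10 members, while 9.52% of all genes tested did not overlap.

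ITGAM (ENSG00000169896, chromosome 16 from 31259967 to 31332892, plus strand) encodes the alpha-M chain of Mac-1. Its levels were 0.0718, 0.103 and 0.234 FPKM in control replicates 1, 2 and 3 and 0.188, 0.106 and 0.139 FPKM in I13 replicates 1, 2 and 3. Behind these values were 7, 10 and 22 control fragments and 17, 10 and 12 I13 fragments, in the same order. The highest and the lowest library were both controls, and the I13 values lay between them. The sum was 39 fragments in each group, a ratio of 1.06 at equal depth with an exact 95% interval from 0.665 to 1.70, which covers counting error only. On the log2 scale the fold change was 0.094 (standard error 0.44, 95% interval from -0.93 to 1.12, adjusted p = 1.00 from limma). With this depth and this spread between libraries, the interval leaves both a fall and a rise possible. The added 0.1 FPKM is close to the level of ITGAM itself, so changes in FPKM are larger than these bounds read. With 0.01 FPKM added instead the estimate was 0.20, with an unadjusted p of 0.775 from limma. By voom it was 0.22, with an unadjusted p of 0.617. With 0.1 FPKM added, the log2 fold change was -0.70 inside the library pair, against 0.49 in the remaining 4. Its sign thus depended on the libraries taken.

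The promoter of ITGAM is shown because this gene, the maturation marker of the family, was at a few fragments per library. SPI1, which encodes PU.1, a known activator of ITGAM, was at 114 ± 7.78 FPKM (SD, n = 3) in the control and 105 ± 6.02 FPKM (SD, n = 3) in the I13 libraries. The promoters of ITGA5 and of the upstream ITGB1 start are shown beside it, since these are the 2 members with the highest levels. RefSeq promoters (build GRCh38.p14, 250 bases before to 50 after the start) were held for 7 of the 10 members, and ITGAX, ITGAL and ITGB2 had no entry. Capitals mark matches, on either strand, to GAGGAA for the PU.1 core, to TGTGGT for the RUNX core and to GGGCGG for the GC box.
ITGAM, plus strand, chr16:31259725-31260024: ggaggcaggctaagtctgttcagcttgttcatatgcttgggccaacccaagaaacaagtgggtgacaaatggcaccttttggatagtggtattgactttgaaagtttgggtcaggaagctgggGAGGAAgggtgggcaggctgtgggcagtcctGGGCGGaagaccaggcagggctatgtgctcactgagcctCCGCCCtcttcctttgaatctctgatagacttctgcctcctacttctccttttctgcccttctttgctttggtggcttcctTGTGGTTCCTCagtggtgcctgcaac
ITGA5, minus strand, chr12:54419217-54419516: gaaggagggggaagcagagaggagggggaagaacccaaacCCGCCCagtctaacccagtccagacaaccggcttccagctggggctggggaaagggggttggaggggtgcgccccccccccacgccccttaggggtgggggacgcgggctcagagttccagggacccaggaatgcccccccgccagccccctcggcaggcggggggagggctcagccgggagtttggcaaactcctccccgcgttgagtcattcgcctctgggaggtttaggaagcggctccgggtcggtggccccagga
ITGB1, minus strand, chr10:32958181-32958480: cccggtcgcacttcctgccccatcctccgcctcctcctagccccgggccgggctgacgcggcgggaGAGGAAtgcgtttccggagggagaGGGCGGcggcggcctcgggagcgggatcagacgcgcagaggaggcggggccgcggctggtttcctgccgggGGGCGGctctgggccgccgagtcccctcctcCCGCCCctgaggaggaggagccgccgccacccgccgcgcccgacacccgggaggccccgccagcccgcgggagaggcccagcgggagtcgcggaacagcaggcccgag
The ITGAM window held all 3 motifs, with 2 PU.1 cores, 1 RUNX core and 2 GC boxes, and its RUNX core shares 1 base with a PU.1 core. The ITGA5 window held 1 GC box, and the ITGB1 window held 1 PU.1 core and 3 GC boxes. Of the 35116 windows in the table, 27.9% held a PU.1 core, 13.1% a RUNX core and 44.95% a GC box. A match of these letters is a description and not a binding site. The windows also differed in CpG dinucleotides, which were counted after the expression values were known. ITGAM had 2 and ITGB7 4, ITGAE had 10, ITGA5 16, ITGA4 31 and ITGB1 39, beside a median of 14 over all windows. The other start of ITGB1 had 4, and the 2 starts of ITGA6 had 11 and 38.

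ITGAL (ENSG00000005844, chromosome 16 from 30472658 to 30523185, plus strand) encodes the alpha-L chain of LFA-1, the main ICAM receptor of lymphocytes. Its levels were 0.0628, 0.198 and 0.159 FPKM in control replicates 1, 2 and 3, from 7, 22 and 17 fragments. In I13 replicates 1, 2 and 3 they were 0.0776, 0.0278 and 0.101 FPKM, from 8, 3 and 10 fragments. Control replicates 2 and 3 were above all I13 libraries and control replicate 1 lay among them. The sums of 46 and 21 fragments gave a ratio of 0.486 with an exact 95% counting interval from 0.275 to 0.831. This interval leaves out the spread between libraries. With that spread, the log2 fold change of -0.49 (standard error 0.48, interval from -1.61 to 0.64) had an adjusted p of 0.993 by limma. By voom the unadjusted p was 0.0617. The estimate depended on single libraries, from -0.74 without control replicate 1 to -0.30 without I13 replicate 2, and it was -0.93 with a pseudocount of 0.01.
ITGAX (ENSG00000140678, chromosome 16 from 31355134 to 31382997, plus strand), which encodes the alpha-X chain (CD11c) of dendritic cells and monocytes, lies next to ITGAM. Its levels were 0.205, 0.0659 and 0.0171 FPKM (25, 8 and 2 fragments) in control replicates 1, 2 and 3. For I13 they were 0.0710, 0.0508 and 0.0925 FPKM (8, 6 and 10 fragments). Again both extremes were control libraries. The sums of 35 and 24 fragments gave a ratio of 0.730 with a counting interval from 0.415 to 1.26. ITGAD, the remaining beta-2 alpha chain, had 1 fragment in I13 replicate 3 and 0 in the other libraries.

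ITGB2 (ENSG00000160255, chromosome 21 from 44885953 to 44931989, minus strand), the common beta-2 chain, was the member closest to the threshold. Its levels were 18.3, 17.0 and 19.8 FPKM in control replicates 1, 2 and 3 and 15.3, 17.5 and 16.1 FPKM in I13 replicates 1, 2 and 3. I13 replicate 2 was above control replicate 2, and the other I13 libraries were below all controls. The mean was 18.4 ± 1.37 FPKM (SD, n = 3) in the control and 16.3 ± 1.09 FPKM (SD, n = 3) in the I13 libraries. I13 minus control was -0.17 on the log2 scale (standard error 0.076, interval from -0.35 to 0.0083), a ratio of 0.888, with an unadjusted p of 0.0587 and an adjusted p of 0.947 from limma. By voom the log2 fold change was also -0.17, with an unadjusted p of 0.0340 and an adjusted p of 0.844. The difference had nearly the same size in both sets of libraries, -0.18 for the pair and -0.17 for the remaining 4. The unadjusted p depended on the setting. It was 0.151 with median scaling, 0.123 without the variance trend and 0.107 with the replicate number as a block, but 0.00913 when the library pair entered the fit, a term taken from the same expression values. In bulk samples, fewer cells that express a gene and less RNA per cell cannot be told apart.

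The beta-2 chain thus stood far above its alpha partners on the same length-corrected scale. The summed level of ITGAL, ITGAM, ITGAX and ITGAD ranged from 0.340 to 0.410 FPKM (39 to 41 fragments) for the control and from 0.184 to 0.347 FPKM (19 to 33 fragments) for I13. ITGB2 was 46.4 to 54.0 times this sum for the control and 45.4 to 94.7 times for I13, with the highest value in I13 replicate 2, which had 19 fragments on these alpha chains. For the beta-1 chain the balance was different. The summed level of 11 of its alpha partners was between 1.33 and 1.59 times that of ITGB1 over the 6 libraries. Some chains within that sum, such as ITGAV and ITGA4, also pair with other beta chains.

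**Figure D2:**
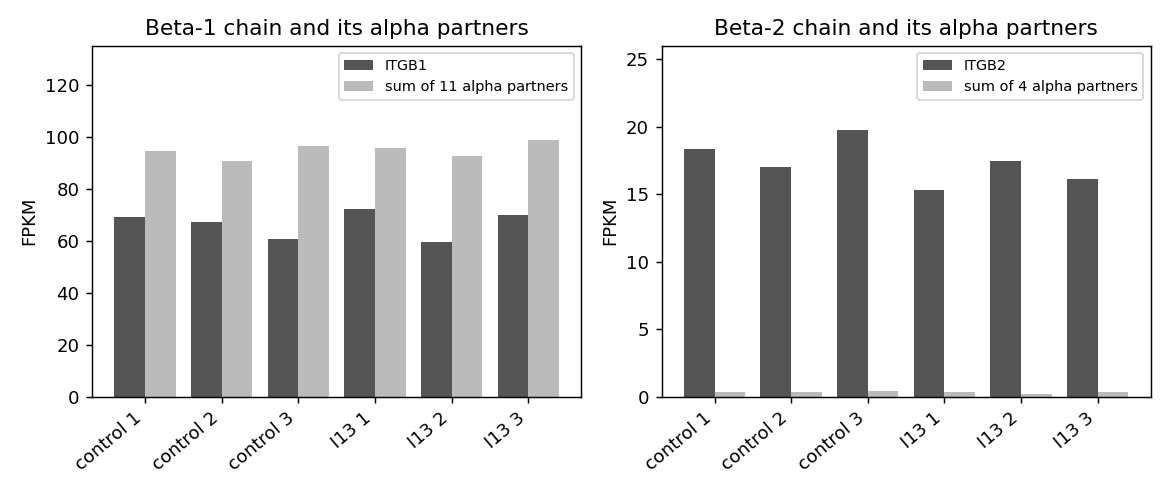
FPKM (vertical) in each of the 6 libraries (horizontal) of ITGB1 and of the sum of 11 alpha partners (left), and of ITGB2 and of the sum of its 4 alpha partners (right). Dark bars are the beta chain and light bars the alpha sum. The alpha sum exceeded ITGB1 in all libraries, while beside ITGB2 it did not exceed 0.410 FPKM.

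ITGB1 (ENSG00000150093, chromosome 10 from 32900319 to 33005792, minus strand), the common beta-1 chain, had the highest level of the family. It was at 69.2, 67.2 and 60.8 FPKM in control replicates 1, 2 and 3 and at 72.0, 59.4 and 70.0 FPKM in I13 replicates 1, 2 and 3. I13 minus control was 0.027 in log2 units (standard error 0.086), with an unadjusted p of 0.762 from limma, and its interval from -0.18 to 0.23 allowed ratios from 0.885 to 1.17. ITGB1 held between 74.3% and 81.4% of the FPKM summed over the 8 beta chain genes, and ITGB2 between 17.3% and 24.2%. The 2 lowest libraries for ITGB1 were control replicate 3 and I13 replicate 2.
ITGA5 (ENSG00000161638, chromosome 12 from 54395261 to 54419460, minus strand), the alpha chain of the fibronectin receptor, was at 45.2, 44.1 and 52.1 FPKM in control replicates 1, 2 and 3. In I13 replicates 1, 2 and 3 it was at 43.4, 49.7 and 48.4 FPKM. Both group means were close to 47.2 FPKM, and they differed by 0.0027 in log2 units (standard error 0.081, interval from -0.19 to 0.19). The 2 highest libraries were again control replicate 3 and I13 replicate 2, so the library pair lay at opposite ends for ITGA5 and for ITGB1.
ITGA4 (ENSG00000115232, chromosome 2 from 181457202 to 181536187, plus strand), the alpha chain of VLA-4, binds VCAM-1 and fibronectin. It was at 27.5, 25.8 and 24.5 FPKM in control replicates 1, 2 and 3 and at 31.1, 24.9 and 29.3 FPKM in I13 replicates 1, 2 and 3. I13 replicates 1 and 3 were above all controls, and I13 replicate 2 was below 2 of the 3 controls. A log2 fold change of 0.13 was estimated (standard error 0.090, interval from -0.085 to 0.34, unadjusted p = 0.201, adjusted p = 0.983 from limma). The pair gave 0.024 and the remaining 4 gave 0.18. Without I13 replicate 2 it was 0.22 with an unadjusted p of 0.0186.

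ITGA6 (ENSG00000091409, chromosome 2 from 172427354 to 172506282, plus strand), an alpha chain of laminin receptors, was at 4.68, 4.06 and 4.45 FPKM in control replicates 1, 2 and 3. In I13 replicates 1, 2 and 3 it was at 5.19, 3.69 and 5.64 FPKM. The lowest of all 6 libraries and the 2 highest were I13 libraries, and the SD was 1.02 FPKM in the I13 group and 0.316 FPKM in the control group. The estimate was a log2 fold change of 0.11 (standard error 0.16, interval from -0.26 to 0.49). The pair gave -0.27 and the remaining 4 gave 0.31, and the value was 0.30 with an unadjusted p of 0.0224 without I13 replicate 2.
ITGAE (ENSG00000083457, chromosome 17 from 3714628 to 3801243, minus strand), the alpha-E chain (CD103) that binds E-cadherin, had between 140 and 158 fragments per library. It was at 1.37, 1.23 and 1.32 FPKM in control replicates 1, 2 and 3 and at 1.44, 1.33 and 1.55 FPKM in I13 replicates 1, 2 and 3. The groups overlapped, with control replicate 1 above I13 replicate 2. The estimate for ITGAE was a log2 fold change of 0.13 (standard error 0.13, interval from -0.18 to 0.44, adjusted p = 0.993 from limma).
ITGB7 (ENSG00000139626, chromosome 12 from 53191318 to 53207307, minus strand), the only beta chain known to join alpha-E, had 0, 2 and 1 fragments in control replicates 1, 2 and 3 and 0 in each I13 library. Both groups were at or under the limit of 3 fragments per group, and no ratio is given. The gene shares 42.1% of its exon length with ZNF740 on the other strand. The kit keeps the strand, but the strand setting of the counting is not given in the sources used here, and its part in the low value was not tested. For the other 9 members such sharing was 9.56% of the exon length or less, and no member shares exon with a gene on its own strand. ITGAE was therefore counted in libraries with few or no ITGB7 fragments, and whether the same cells lack the partner chain was not tested.

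**Figure D3:**
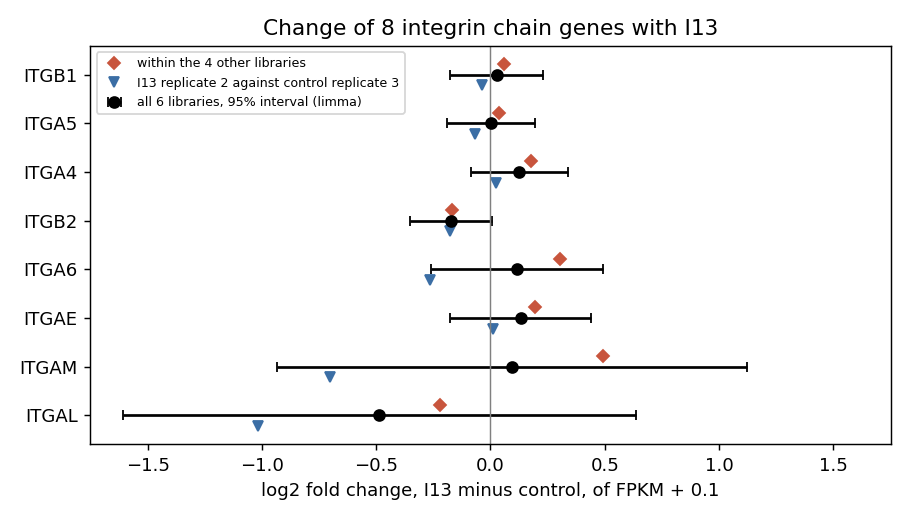
Log2 fold change, I13 minus control (horizontal), of the 8 integrin genes tested (vertical). Black points with bars are limma estimates over all 6 libraries with 95% intervals, red diamonds the difference within the 4 other libraries, and blue triangles I13 replicate 2 against control replicate 3. All intervals include 0, that of ITGB2 ends at 0.0083, and the red and blue points are on opposite sides of 0 for ITGB1, ITGA5, ITGA6 and ITGAM.

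For ITGA6, ITGB1, ITGA4 and ITGA5 the contrast between the library pair and the remaining 4 was larger in size than that between I13 and control, while for ITGB2 it was slightly smaller. Averaged over both groups, the pair differed from the others of its group by -0.26 for ITGA6, -0.21 for ITGB1, -0.20 for ITGA4, 0.17 for ITGA5 and 0.16 for ITGB2, on the log2 scale. The ratio of ITGA5 to ITGA4 was 2.12 in control replicate 3 and 1.99 in I13 replicate 2, and in the remaining 4 libraries it was 1.40 to 1.71. ITGA6 differed less evenly, by 0.030 in control replicate 3 and by -0.54 in I13 replicate 2. These libraries were set apart by the expression values themselves, so no test of this contrast is given.

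**Figure D4:**
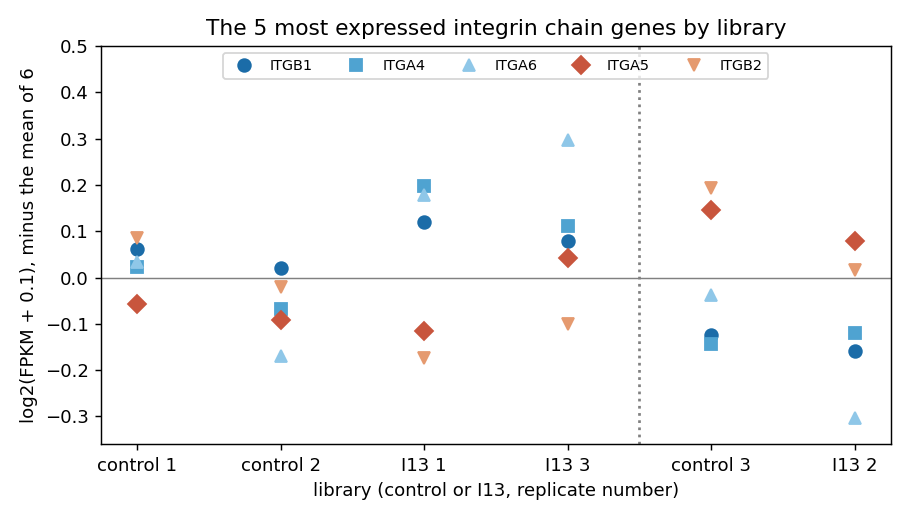
Log2(FPKM + 0.1) minus the mean of the 6 libraries (vertical) for the 5 most expressed integrin genes, by library (horizontal), with 1 point per gene and library. The dotted line divides the 4 libraries from control replicate 3 and I13 replicate 2. In this pair ITGB1 and ITGA4 were below their mean and ITGA5 and ITGB2 above it.

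The genes whose pattern over the 6 libraries was nearest to a member were taken as those with the smallest root mean square difference of centred log2(FPKM + 0.1), among 11517 genes with a mean of at least 1 FPKM. For ITGB2 they included FLII (0.0243) and COPG1 (0.0274), where the spread of ITGB2 itself was 0.119 and 1204 genes lay within 0.1. For ITGAM they were COX5BP6 (0.107), HS3ST1 (0.124) and AL358942.1 (0.125), where its own spread was 0.325 and 0 genes lay within 0.1.

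A list of 16 other integrin chains was examined in the same fit. Of these, 15 were in the table, 7 were tested and 0 had an unadjusted p under 0.05. ITGAV, ITGA9 and ITGB4 had the highest levels. ITGA9, an alpha chain that joins beta-1 alone, was at 6.64 ± 0.152 FPKM (SD, n = 3) in the control and 5.96 ± 0.353 FPKM (SD, n = 3) in the I13 libraries, and all I13 libraries were below all controls. Its log2 fold change was -0.15 with an unadjusted p of 0.0652 from limma. ITGAV was at 8.41 ± 0.799 FPKM (SD, n = 3) and 7.74 ± 0.765 FPKM (SD, n = 3), with overlapping libraries. ITGB3 and ITGB6, chains of platelet and epithelial integrins, were at or near 0.

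Genes that act with integrins were described in 6 lists, with the other integrin chains as one of them. Of 75 genes tested, 5 (6.67%) had an unadjusted p under 0.05 by limma, all 5 lower and 0 higher in I13, beside 5.14% of all genes tested, 2.59% lower and 2.55% higher. None passed the adjusted p by limma or voom. Voom, which did not test all of the 75, gave 5 an unadjusted p under 0.05, beside 5.4% of all genes tested by voom. Of these 5, FERMT3, ICAM1 and CD37 were called by both and RASGRP4 and IRF8 by voom alone. The median log2 fold change of the 75 genes was -0.0076. The groups did not overlap for 1 of 7 other chains, 3 of 20 activation genes, 3 of 21 signaling genes and 2 of 10 ligand genes tested. The same held for 1 of 6 tetraspanins and 1 of 11 regulator genes, beside 9.52% of all genes tested. Among these genes without overlap, ICAM5 and VCL were higher in I13 and the others lower.
Of 20 activation genes tested, 1 was called by limma. FERMT3 encodes kindlin-3, which binds the beta chain tail and is needed for activation of leukocyte integrins, and it was at 76.3, 77.1 and 82.5 FPKM in control replicates 1, 2 and 3. In I13 replicates 1, 2 and 3 it was at 62.8, 76.3 and 65.8 FPKM, just below the lowest control in I13 replicate 2. I13 minus control was -0.21 in log2 units (standard error 0.078), with an unadjusted p of 0.0325 and an adjusted p of 0.947 from limma. Leaving out any library other than I13 replicate 2 took the p above 0.05, to 0.121 at most, and with median scaling it was 0.106. RASGRP4, an exchange factor for Ras of myeloid cells, was at 1.10 ± 0.262 and 0.763 ± 0.0850 FPKM (SD, n = 3) in the control and I13 libraries, without overlap, with an unadjusted p of 0.0580 from limma and 0.0262 by voom. APBB1IP encodes RIAM, which carries talin to the beta tail, and TLN1 encodes talin. APBB1IP was at 87.4 ± 0.647 and 82.1 ± 3.49 FPKM (SD, n = 3) in the control and I13 libraries, without overlap, with an unadjusted p of 0.0852 from limma. TLN1 was at 35.4 ± 1.43 and 34.7 ± 2.44 FPKM (SD, n = 3), with overlap.
Of 21 signaling genes tested, 1 was called by limma. FCER1G, an adaptor with an ITAM motif that works with beta-2 integrins and Fc receptors, was at 1.52 ± 0.296 FPKM (SD, n = 3) in the control and 0.931 ± 0.0474 FPKM (SD, n = 3) in the I13 libraries, without overlap. Behind these were only 27, 29 and 19 fragments in control replicates 1, 2 and 3 and 15, 15 and 13 in I13 replicates 1, 2 and 3. Limma gave a difference of -0.64 in log2 units (standard error 0.18) with an unadjusted p of 0.00861 and an adjusted p of 0.859, and the unadjusted p by voom was 0.0522. ZYX, CRKL and PTK2B, which encode zyxin, the adaptor CRKL and the kinase PYK2, had the highest levels of this list. VCL was at 11.8 ± 0.281 FPKM (SD, n = 3) in the control and 12.3 ± 0.323 FPKM (SD, n = 3) in the I13 libraries. It was higher in I13 without overlap, with an unadjusted p of 0.298 from limma.
Of 10 ligand genes tested, 2 were called by limma. ICAM1, a ligand of LFA-1 and Mac-1, was at 3.75 ± 0.590 FPKM (SD, n = 3) in the control and 2.87 ± 0.487 FPKM (SD, n = 3) in the I13 libraries, with I13 replicate 2 above control replicate 2. Limma gave -0.38 in log2 units (standard error 0.16) and an unadjusted p of 0.0465, which held only when replicate 2 of either group was the library left out, and otherwise reached 0.164 at most. It was 0.0823 with median scaling and 0.0885 with the replicate block. F11R, the junction molecule JAM-A and a ligand of LFA-1, was at 12.1 ± 0.576 and 10.8 ± 0.347 FPKM (SD, n = 3). It differed by -0.16 in log2 units, with an unadjusted p of 0.0362 from limma and 0.0583 by voom. Leaving out replicate 1 of either group or replicate 3 of I13 took the limma p above 0.05, to 0.0887 at most, and it was 0.0856 with median scaling and 0.0933 with the replicate block. JAM3 and ICAM5 had the next levels. ICAM5 was at 5.69 ± 0.199 FPKM (SD, n = 3) in the control and 6.17 ± 0.233 FPKM (SD, n = 3) in the I13 libraries. It was higher in I13 without overlap, with an unadjusted p of 0.139 from limma. VCAM1, the ligand of VLA-4, was at 0 in all libraries.
Of 6 tetraspanins tested, which hold integrins in membrane domains, 1 was called by limma. CD37, a tetraspanin of leukocytes, was at 49.6, 45.7 and 46.9 FPKM in control replicates 1, 2 and 3 and at 40.4, 42.4 and 41.3 FPKM in I13 replicates 1, 2 and 3, without overlap. In log2 units the difference was -0.20 (standard error 0.049), with an unadjusted p of 0.00504 and an adjusted p of 0.767 from limma, and no single library left out took the p above 0.0191. CD63 and CD53, with the other high levels of the list, had log2 fold changes of 0.042 and 0.0081.
Of 11 genes for factors that regulate myeloid integrin genes, 0 were called by limma and 1 by voom. IRF8, a factor of monocyte and dendritic cell development, was at 1.31 ± 0.281 and 0.957 ± 0.106 FPKM (SD, n = 3) in the control and I13 libraries, without overlap, with an unadjusted p of 0.0717 from limma and 0.0268 by voom. SPI1, MYB and CEBPE had the highest levels, and SPI1 differed by -0.11 in log2 units (standard error 0.067) with an unadjusted p of 0.145 from limma.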

How the data were processed

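RNA from Kasumi-1 cells was sequenced as 3 control and 3 I13 libraries, prepared per the labels with a stranded mRNA kit. The authors deposited FPKM values per gene and library. The submitters' processing notes name Trimmomatic, HISAT2, Cufflinks, HTSeq and hg38, while the sources used here give neither the annotation nor the strand setting of the counting. Symbols, positions and exon lengths were taken from GENCODE release 29 (GRCh38), which named 32244 of 32364 identifiers. With these lengths, 25773 of 27002 genes (95.4%) gave whole fragments in all libraries within 0.01, which fixed the depth. A further 1216 genes, ITGAM among them, gave whole fragments at a nearby length, and 106 genes above 0 were not recovered. ITGAM gave them at 5667 bases, where the annotation has 5688. The depth sets the counting precision, and intervals of ratios of fragments cover counting error only.

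Groups were compared by limma 3.58.1 (R 4.3.3), with a variance trend, on log2(FPKM + 0.1). Genes under a mean of 0.1 FPKM were left out, and this scale makes the changes of low genes look smaller. The alternative on fragments was voom, for genes averaging 10 fragments or more. P-values are two-sided and adjusted by Benjamini-Hochberg over all genes tested. The fold threshold in the study's methods was a log2 change of 0.58. On simulated data for this comparison, limma called, at an adjusted p under 0.05, 135 of 199 genes changed by 2-fold and 28 unchanged genes among 18100, and voom called 182 of 196 and 16 among 13686. The simulation gave every gene the same dispersion of 0.01 and held no difference for the library pair. Only genes averaging 10 fragments or more were changed. These counts are therefore not the power of the real comparison for the members. Deviations from the group mean correlated at 0.083, -0.070 and -0.017 between same-numbered libraries. Control replicate 3 with I13 replicate 2 gave 0.072, and control replicate 2 with I13 replicate 3 gave 0.085. This measure set neither the replicate numbers nor the library pair apart. Alternatives were other pseudocounts (1 and 0.01), filters, scalings, no trend, a replicate block, each library left out, a term for the library pair and voom. Voom with the pair term and with the block were added after the values were seen.

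The members and lists were chosen with earlier results of these data known. Named genes are the 10 members, list genes with an unadjusted p under 0.05, the 3 with the highest level in each list, and the 3 genes nearest to ITGAM and to ITGB2, of which 1 is not reported here. Other names, such as ITGAD, CSF3R, RASGRP4, IRF8 or VCAM1, were chosen after their values were seen. Python 3.11.15 with pandas 2.3.3, scipy 1.17.1 and matplotlib 3.10.9 was used for the rest.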

Additional observations from a re-analysis of the deposited data

How the results depend on the processing

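Under every alternative, 0 integrin members passed the adjusted p. The number with an unadjusted p under 0.05, which was 0, ranged from 0 to 3 as single libraries were left out, where ITGB2, ITGA4 and ITGA6 passed without I13 replicate 2 and ITGB2 also without control replicate 2. It was 1 with the library pair term and 1 by voom, both ITGB2, 2 by voom with the pair term (ITGB2 and ITGA4) and 1 by voom with a replicate block (ITGAL). In the limma fit with the replicate number as a block it stayed at 0, and 862 genes were called over all genes. Over all genes, 963 had an unadjusted p under 0.05, 582 with a minimum mean of 1 FPKM and from 784 to 1295 as single libraries were left out, and with the pair term 1427 of 18726 by limma and 1408 of 13821 by voom. At the adjusted p, 9 genes passed without the variance trend, 6 by voom, 84 by voom with the pair term and 24 by voom with the block, beside 0 otherwise. Leaving out single libraries, log2 fold changes crossed 0 for ITGAM (from -0.11 to 0.37), ITGA5 (from -0.043 to 0.076), ITGA6 (from -0.0045 to 0.30) and ITGB1 (from -0.028 to 0.11), and that of ITGA5 was -0.019 with quantile normalization. That of ITGB2 stayed from -0.22 to -0.12. The cause of these differences was not tested. The values of ITGAM, ITGAL, ITGAX and ITGB7 rest on 46 fragments per group or fewer. Libraries of the same group also differed widely, as with 25, 8 and 2 ITGAX fragments in control replicates 1, 2 and 3. The parts of depth and of this spread were not tested.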
